A study of Homo sapiens with 12 samples.

Results

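The 39 HOX cluster genes were described in 12 RNA-seq libraries of Ishikawa and KLE cells, both human endometrial cancer lines. Members were all genes of the deposited table whose symbol is HOX followed by a cluster letter from A to D and a number, which took 39 of 20332 genes: 11 in HOXA, 10 in HOXB, 9 in HOXC and 9 in HOXD. The groups were KLE cells after 24 h in 200 µM CuCl2, untreated KLE cells, Ishikawa cells after 24 h in 200 µM CuCl2 and untreated Ishikawa cells, with 3 independent biological replicates each, per the labels. The untreated cells are also labelled as vehicle. Each line is a single tumour-derived line, so a difference between them is a difference between these 2 lines, and 1 dose and 1 time were measured.

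HOX genes encode homeodomain transcription factors and lie in 4 clusters, which in GENCODE v29 on GRCh38 span chr7:27092993-27200106 (HOXA), chr17:48528526-48729178 (HOXB), chr12:53938765-54056030 (HOXC) and chr2:176092891-176190907 (HOXD). Genes with the same number in different clusters are paralogs, and the number follows their order along the chromosome: low numbers are used toward the head of the embryo and high numbers toward its tail. Along the Müllerian tract, which forms oviduct, uterus, cervix and upper vagina, HOXA9, HOXA10, HOXA11 and HOXA13 are used in that order, and HOXA10 and HOXA11 stay active in the adult endometrium. HOX proteins bind DNA together with PBX and MEIS partners, and Polycomb and Trithorax chromatin complexes hold the clusters closed or open.

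Libraries held 14050275 to 25057003 counts. Epithelial identity was clear in part: PAX8, EPCAM, CDH1, KRT8, KRT18 and KRT19 each averaged 155 TPM or more in every group, while ESR1, PGR and FOXA2 stood at 0.386 TPM or less. Between these, SOX17 ranged from 15.9 TPM in copper-treated KLE to 38.7 TPM in untreated Ishikawa cells. EMX2 ranged from 2.54 TPM in copper-treated KLE to 32 TPM in untreated Ishikawa cells. One library stood apart in depth and in fibroblast markers other than FBLN1. Untreated Ishikawa library 2 was the deepest and had 0 counts of the fibroblast genes DCN and LUM. The 11 fibroblast markers other than FBLN1 summed to 7.87 TPM there, against 16.6 to 54.9 TPM in the other 11 libraries. FBLN1 averaged 122 TPM in copper-treated KLE, 200 in untreated KLE, 19.8 in copper-treated Ishikawa and 30.2 in untreated Ishikawa cells. With FBLN1 in the sum, untreated Ishikawa library 2 stood at 41.8 TPM and was not the lowest, as Ishikawa copper library 2 stood at 39.8 TPM. HOXA10 stood at 35.0, 37.3 and 33.7 CPM in untreated Ishikawa libraries 1, 2 and 3, so library 2 was not apart in the most abundant member. CPM are counts relative to the library total, scaled with TMM factors that even out library composition. Without untreated Ishikawa library 2, 14 HOX genes passed the test for copper in Ishikawa cells (14 with it). The test for the difference between the responses was passed by 8 (8 with it), and that between the untreated lines by 6 (7 with it). In bulk RNA, fewer cells with a transcript and less transcript per cell cannot be told apart.

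Both untreated lines carried mainly HOXA and HOXD transcripts, with HOXB13 added. Levels are given as TPM, which are scaled for transcript length and for the library total, with the SD of 3 libraries. In untreated cells, 19 of the 39 members averaged at least 1 TPM in KLE and 19 in Ishikawa, where 61.0% and 61.2% of all genes did. With copper the number was 17 in KLE and 17 in Ishikawa cells. Of the 39, 16 reached 1 TPM in all 4 groups, among them HOXA3, HOXA4, HOXA5, HOXA6, HOXA7, HOXA9, HOXA10, HOXA11, HOXA13, HOXB13, HOXD1, HOXD4, HOXD8, HOXD9 and HOXD13. HOXA2, HOXD3, HOXD10 and HOXD11 reached it in some groups, and the other 19 (HOXB1 to HOXB9, all 9 HOXC genes and HOXD12) in none. Among the 16, HOXA13 in copper-treated Ishikawa cells came close to that limit, at 1.18 ± 0.221 TPM.

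**Figure D1:**
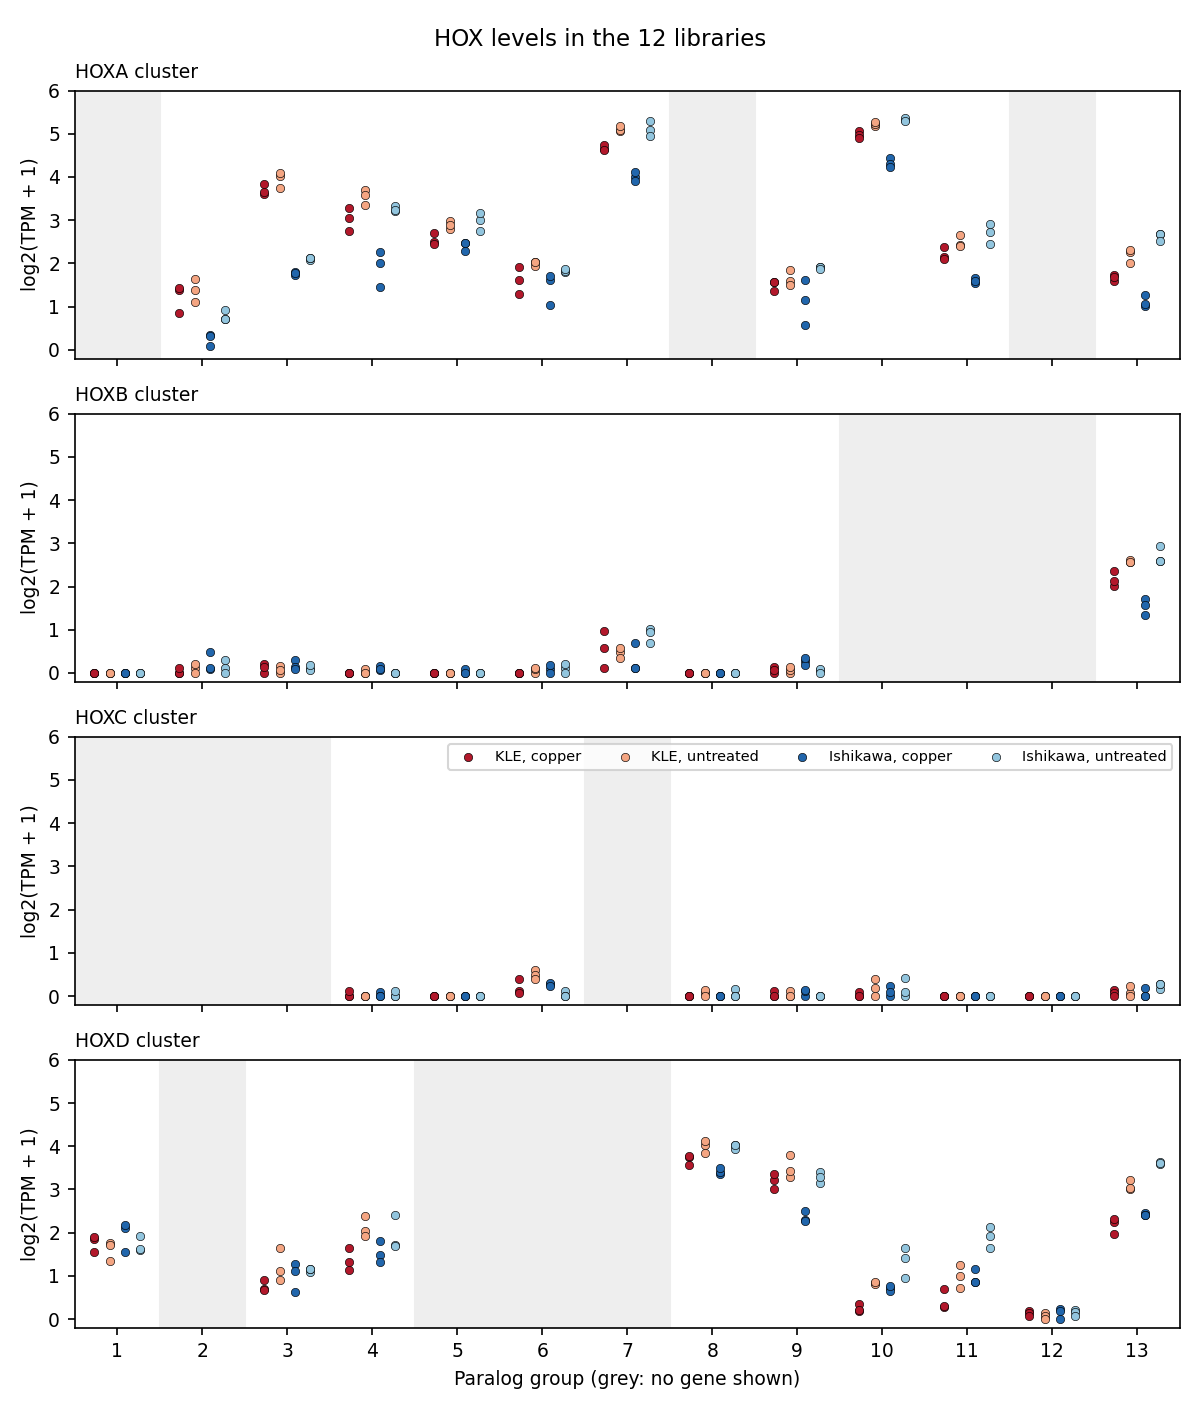
Levels of the described HOX genes as log2(TPM + 1) by cluster and paralog group; each point is 1 library, in the order KLE copper, KLE untreated, Ishikawa copper and Ishikawa untreated, and grey marks a number with no gene shown. HOXA and most HOXD genes and HOXB13 carry the signal, while HOXB1 to HOXB9, HOXD12 and all HOXC genes lie near 0.

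HOXC genes stayed near 0 in every group. The 9 HOXC genes together held 2 to 8 counts per library in copper-treated KLE cells, 8 to 15 in untreated KLE cells, 4 to 11 in copper-treated Ishikawa cells and 6 to 7 in untreated Ishikawa cells. HOXB1, HOXB8, HOXC5, HOXC11 and HOXC12 had 0 counts in all 12 libraries, and 0 counts allow up to 3, or 0.114 to 0.222 CPM per library, for counting error only. HOXB without HOXB13 held 1 to 15 counts in copper-treated KLE libraries, 5 to 10 in untreated KLE, 13 to 18 in copper-treated Ishikawa and 13 to 16 in untreated Ishikawa. HOXB13, at the far end of its cluster, averaged 4.99 ± 0.106 TPM in untreated KLE cells and 5.54 ± 0.935 TPM in untreated Ishikawa cells. It is best known from the prostate and distal gut.

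HOXA10, the uterine paralog, was the most abundant member in both untreated lines, with 36.4 ± 1.25 TPM in KLE and 39.2 ± 1.1 TPM in Ishikawa cells. HOXA7, a middle-group gene, came next with 33.6 ± 1.37 TPM in KLE and 33.7 ± 4.45 TPM in Ishikawa cells, and the ranges of the 2 genes overlapped in each line. Together they made up 41.3 ± 0.7% of summed HOX TPM in untreated KLE cells and 44.4 ± 0.696% in untreated Ishikawa cells. HOXD8, also a middle-group gene, followed in both, at 15 ± 1.56 TPM in KLE and 15.1 ± 0.534 TPM in Ishikawa cells. The next gene differed: it was HOXA3 in KLE cells, at 14.5 ± 1.9 TPM and overlapping HOXD8, and HOXD13 in Ishikawa cells, at 11.2 ± 0.235 TPM and apart from its neighbours in the order. HOXA10 exceeded the mean of 76.4% of all genes in untreated KLE cells and of 77.8% in untreated Ishikawa cells.

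Over the 39 genes, the correlation of mean log2(TPM + 1) between the untreated lines was 0.965, against 0.986 over all 20332 genes. Genes near 0 in both lines raise both values: among genes at 1 TPM or more in an untreated line it was 0.897 over 20 HOX genes and 0.962 over 12776 genes. Genes are not independent replicates, and both lines share annotation and pipeline. Summed HOX TPM was 170 ± 4.13 in untreated KLE and 164 ± 9.83 in untreated Ishikawa cells. HOXA took 71.7 ± 1.37% of it in KLE and 67.6 ± 1.14% in Ishikawa cells, HOXD took 24.6 ± 1.22% in KLE and 28 ± 1.11% in Ishikawa, and HOXB took 3.32 ± 0.0744% in KLE and 4.07 ± 0.158% in Ishikawa. The ranges of HOXA, HOXD and HOXB shares did not overlap between the lines.

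Untreated KLE and Ishikawa cells were compared gene by gene in a fit of all 12 libraries. All p-values of genes are from edgeR's quasi-likelihood test with Benjamini-Hochberg adjustment over all genes tested, and a gene is called where the adjusted p is under 0.05. The log2 fold changes carry an SE. Of 20 HOX genes with enough counts, 3 were higher in KLE, 4 were lower and 13 were not called. Over all 13663 genes tested, 24.5% were higher and 25.6% lower, so 35% of the tested HOX genes were called where 50% of all genes were. The median log2 fold change was -0.033 over the HOX genes and -0.0044 over all genes. CPM ranges did not overlap for 4 HOX genes that were higher in KLE and 4 that were lower, where 27.4% of all genes were apart and higher and 27.7% apart and lower.

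HOXA3 and HOXA2 were among the genes higher in KLE. HOXA3, which patterns pharyngeal arches in mice, had 15.7, 12.3 and 13.3 CPM in untreated KLE libraries, against 4.50, 3.16 and 4.43 CPM in untreated Ishikawa libraries. Its groups lay far apart, with a log2 fold change of 1.79 ± 0.141 (edgeR adjusted p 2e-10). HOXA2, a gene of the hindbrain and the second pharyngeal arch, held few reads: 14, 22 and 27 counts in KLE and 8, 13 and 12 in Ishikawa, a log2 fold change of 1.23 ± 0.391 (edgeR adjusted p 0.0116). HOXD1 and HOXD3, from the low end of the HOXD cluster, were not called, at -0.11 ± 0.272 and -0.21 ± 0.319. Of the exonic bases of HOXD3, 62.2% are shared with AC009336.2 on the same strand, and of those of HOXD1, 58.1% are covered on the other strand, so their reads cannot be assigned to them alone.

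The genes lower in KLE had high numbers. HOXD11, a gene of the forelimb and kidney in mice, had a log2 fold change of -1.39 ± 0.346 (edgeR adjusted p 0.00187), with 8, 19 and 13 counts in KLE and 35, 70 and 29 in Ishikawa. HOXD10, a gene of the hindlimb and its motor neurons in mice, stood at -0.94 ± 0.362 (edgeR adjusted p 0.0347). HOXD13, a gene of digits and the genital tubercle, had 10.1, 8.38 and 8.32 CPM in KLE and 12.6, 12.6 and 13 CPM in Ishikawa cells, a log2 fold change of -0.52 ± 0.12 (edgeR adjusted p 0.000945). HOXA13, the paralog of the most distal tract, had 9.55, 9.83 and 7.36 CPM in KLE and 12.9, 12.4 and 11.4 CPM in Ishikawa cells, a log2 fold change of -0.46 ± 0.132 (edgeR adjusted p 0.00611). The ranges of HOXD13 and of HOXA13 did not overlap between the lines. The oviduct and uterine genes were not called, with HOXA9 at -0.12 ± 0.28, HOXA10 at -0.018 ± 0.0704 and HOXA11 at -0.14 ± 0.162, nor was HOXD9, at 0.30 ± 0.141. HOXB13 was not called either, at -0.10 ± 0.15. HOXD10 was lost (edgeR adjusted p 0.0793 to 0.165) without KLE library 1, 2 or 3 or Ishikawa library 2 or 3, and HOXA13 (0.0588) and HOXA2 (0.0759) without untreated KLE library 3, which left 4 of the 7 calls.

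With copper, summed HOX TPM fell in Ishikawa cells, and so did most tested members, but not all. Summed HOX TPM was 82.6 ± 1.96 with copper and 164 ± 9.83 untreated, a ratio of 0.504. HOXA stood at 53.4 ± 2.96 TPM with copper and 111 ± 7.38 untreated, and HOXD at 25.9 ± 1.62 with copper and 46.0 ± 2.81 untreated. HOXB stood at 2.90 ± 0.393 TPM with copper and 6.69 ± 0.566 untreated, and without HOXB13 at 0.967 ± 0.227 with copper and 1.15 ± 0.377 untreated. HOXC stood at 0.419 ± 0.157 TPM with copper and 0.409 ± 0.226 untreated. Of 19 HOX genes tested, 0 were higher, 14 were lower and 5 were not called, which is 73.7% called. Over all 13359 genes tested, 69.1% were called, 33.8% higher and 35.3% lower. By unadjusted edgeR p under 0.05, 0 HOX genes were higher as well, and DESeq2 and limma-voom also called 0 higher. These checks kept the count filter, which left 20 of the 39 members untested. Without that filter some were called higher, as given below, and with 1 library left out 0 to 1 were. The median log2 fold change was -0.90 over the 19 and -0.013 over all genes. CPM ranges did not overlap and were lower with copper for 14 of the 19, where this held for 39% of all genes. Of 9 epithelial markers tested, 1 was higher and 7 were lower with copper in Ishikawa cells, with a median of -0.41, and their part in the HOX result was not tested.

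HOXA13 changed the most. It had 3.80, 2.63 and 2.89 CPM in copper-treated Ishikawa libraries, against 12.9, 12.4 and 11.4 CPM in untreated ones, so every treated library lay below every untreated one by a wide gap. Its log2 fold change was -1.94 ± 0.155 (edgeR adjusted p 3.93e-08). Its paralogs fell too. HOXB13 had 3.68, 3.11 and 2.44 CPM with copper and 7.24, 9.23 and 7.24 CPM untreated, a log2 fold change of -1.33 ± 0.181 (edgeR adjusted p 1.2e-05). HOXD13 had 5.79, 5.44 and 5.41 CPM with copper and 12.6, 12.6 and 13 CPM untreated, a log2 fold change of -1.17 ± 0.118 (edgeR adjusted p 5.03e-07). HOXC13 had 3, 0 and 0 counts with copper and 2, 6 and 4 untreated, and did not pass the count filter. Summed over paralog group 13, TPM was 7.55 ± 0.758 with copper and 22.1 ± 1.28 untreated.

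Group 13 is shown here because its 3 transcribed members fell in both lines. The homeobox, the 180 bases that encode the DNA-binding homeodomain, was taken from GENCODE v29 transcripts on GRCh38: chr7:27198222-27198401 (minus strand) for HOXA13, chr17:48726820-48726999 (minus) for HOXB13, chr12:53945041-53945220 (plus) for HOXC13 and chr2:176094524-176094703 (plus) for HOXD13. Capitals mark codons 48 to 53, in the helix that reads the major groove.
HOXA13 homeobox: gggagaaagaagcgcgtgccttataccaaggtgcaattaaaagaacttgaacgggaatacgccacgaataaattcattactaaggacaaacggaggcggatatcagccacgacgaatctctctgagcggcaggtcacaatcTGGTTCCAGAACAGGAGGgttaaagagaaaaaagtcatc
HOXB13 homeobox: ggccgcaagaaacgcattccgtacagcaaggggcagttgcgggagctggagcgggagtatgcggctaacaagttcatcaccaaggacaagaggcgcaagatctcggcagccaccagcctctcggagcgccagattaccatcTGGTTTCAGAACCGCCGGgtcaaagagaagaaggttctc
HOXC13 homeobox: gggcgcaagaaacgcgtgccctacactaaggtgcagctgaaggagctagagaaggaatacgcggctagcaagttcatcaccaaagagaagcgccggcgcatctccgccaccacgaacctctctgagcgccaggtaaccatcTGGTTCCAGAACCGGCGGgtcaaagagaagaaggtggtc
HOXD13 homeobox: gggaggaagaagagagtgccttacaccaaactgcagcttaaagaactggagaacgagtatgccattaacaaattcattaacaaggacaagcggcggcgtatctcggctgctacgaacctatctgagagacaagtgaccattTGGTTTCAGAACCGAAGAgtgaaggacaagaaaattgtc
Identity between the homeoboxes was 73.3% for HOXA13 and HOXD13, 69.4% for HOXA13 and HOXB13 and 70.0% for HOXB13 and HOXD13, and HOXC13, with 22 counts over the 12 libraries, was the most like HOXB13, at 80.0%. Over 40 paralog pairs in the 4 clusters, the longest run shared by any annotated transcripts was 12 to 62 bases. Of these pairs, 0 shared a run of the read length of 150 bases. HOXC11, for which no homeobox was taken, was not among the genes compared.

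The other tested members of paralog groups 9 to 12 were lower too in Ishikawa cells. HOXD11 held 12, 12 and 15 counts with copper and 35, 70 and 29 untreated, a log2 fold change of -1.39 ± 0.304 (edgeR adjusted p 0.000903). HOXA11, of the lower uterus and cervix, had 2.17, 2.45 and 2.37 CPM with copper and 6.66, 5.64 and 4.66 CPM untreated, a log2 fold change of -1.25 ± 0.192 (edgeR adjusted p 4.01e-05), and 31.1% of its exonic bases are covered by HOXA11-AS on the other strand. HOXA10 had 20.8, 18.8 and 17.7 CPM with copper and 35.0, 37.3 and 33.7 CPM untreated, and fell by 0.86 ± 0.0866 (edgeR adjusted p 5.23e-07). The ranges of HOXA11 and HOXA10 did not overlap. HOXD10 and HOXD11 share 452 exonic bases on 1 strand, and HOXA9 and HOXA10 share some with the transcript AC004080.3, so part of their reads may be split. HOXD9 fell by 0.90 ± 0.153, HOXA9 by 0.95 ± 0.333 and HOXD10 by 1.11 ± 0.375. Of the 16 members of paralog groups 9 to 13, 9 passed the count filter. Those 9 were called lower, with a median of -1.17, where 69.1% of all genes were called and 35.3% were lower.

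Members of groups 4 to 8 were lower in 4 of 6 cases, with a median of -0.47, where 35.3% of all genes were lower. HOXA4 had 1.81, 2.21 and 1.33 CPM with copper and 5.09, 4.42 and 4.31 CPM untreated, and fell by 1.32 ± 0.219 (edgeR adjusted p 7.98e-05), but 31% of its exonic bases are shared with AC004080.6 on the same strand. HOXA7, which takes part in patterning the trunk, had 16.1, 17.2 and 14.7 CPM with copper and 31.5, 34.6 and 28 CPM untreated, and fell by 0.94 ± 0.0989 (edgeR adjusted p 7.61e-07). Of its exonic bases, 62.5% are also covered by HOXA-AS3 on the other strand, and whether counting used strand is not given, so reads of the pair cannot be told apart. HOXA5, a gene needed for the lung in mice, fell by 0.48 ± 0.172 and HOXD8 by 0.46 ± 0.115, while HOXA6 at -0.33 ± 0.344 and HOXD4 at -0.46 ± 0.337 were not called.

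At the low end, 1 of 4 tested members of groups 1 to 3 was lower, against 35.3% of all genes, and the median was 0.023. HOXA3 had 2.23, 2.69 and 2.30 CPM with copper and 4.50, 3.16 and 4.43 CPM untreated, and fell by 0.70 ± 0.215 (edgeR adjusted p 0.00969). HOXD1 had 1.93, 3.23 and 3.48 CPM with copper and 1.83, 2.44 and 1.85 CPM untreated. Its groups overlapped, and it was not called, at 0.50 ± 0.262. HOXD3 was not called, at -0.32 ± 0.325. HOXA2 held 1, 4 and 3 counts with copper and 8, 13 and 12 untreated and did not pass the count filter. Whether the paralog bands differ in response was not tested. HOXA5, HOXA9 and HOXD10 lost the call when 1 library was left out: HOXA5 without copper library 3 or untreated library 1 or 2 (edgeR adjusted p 0.0526 to 0.082), HOXA9 without copper library 2 or untreated library 1 (0.0667 to 0.102), HOXD10 without copper library 2 or untreated library 3 (0.0633 to 0.0794).

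**Figure D2:**
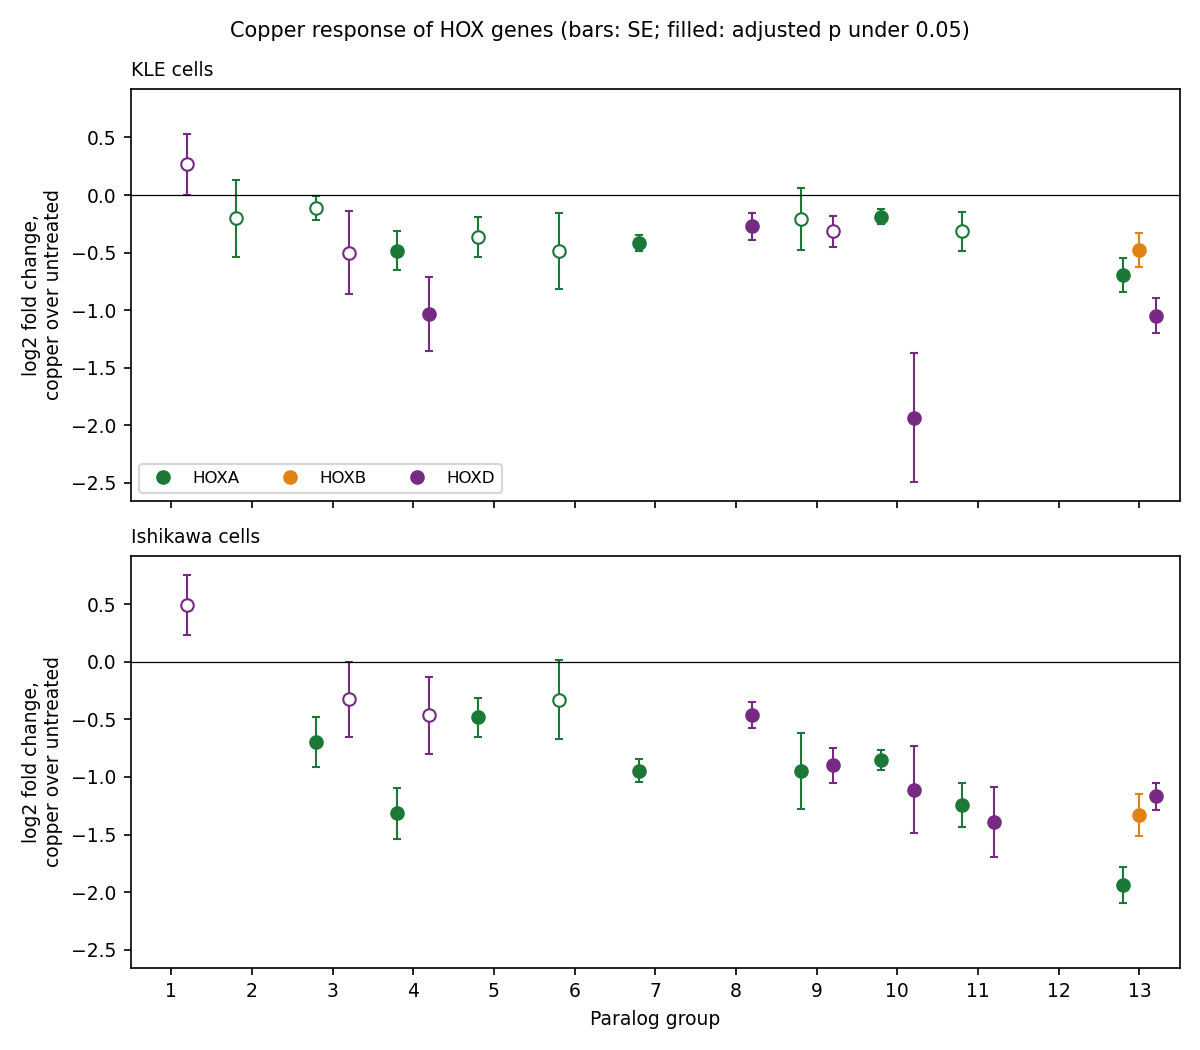
Copper over untreated log2 fold change by paralog group, KLE cells above and Ishikawa cells below; points are the described HOX genes among those tested, coloured by cluster, bars are SE and filled points passed an adjusted p of 0.05. In Ishikawa cells all 9 points of groups 9 to 13 are filled and below 0, where 35.3% of all genes tested were called lower. HOXD1 lies above 0 in both lines and is not filled.

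In KLE cells fewer HOX genes passed the test than in Ishikawa cells, 52.6% against 73.7% of those tested. Fewer of all genes passed as well, 50.8% against 69.1%. HOXD13, HOXA13 and HOXB13 were lower as in Ishikawa cells. Summed HOX TPM was 130 ± 5.7 with copper and 170 ± 4.13 untreated, a ratio of 0.767. HOXA stood at 96.5 ± 5.52 TPM with copper and 122 ± 4.01 untreated, and HOXD at 29.1 ± 0.963 with copper and 41.6 ± 2.18 untreated. Of 19 HOX genes tested, 1 was higher, 9 were lower and 9 were not called, while 50.8% of all 13031 genes tested were called, 25.6% higher and 25.2% lower. DESeq2 called 6 HOX genes, all 6 lower, and the 1 higher call was also lost with limma on TPM and in the fit of all 12 libraries. The median log2 fold change was -0.36 over the 19 and -0.0017 over all genes. CPM ranges did not overlap and were lower with copper for 11 of the 19, where this held for 28.2% of all genes. None was apart and higher, against 28.4% of all genes. Of 8 epithelial markers tested, 3 were higher and 2 lower, and mitochondrial genes took 4.05 to 4.72% of counts with copper and 5.91 to 6.82% untreated. Whether either bears on the HOX values was not tested. Estimates were below 0 for 17 of 19 HOX genes in KLE cells and for 17 of 19 in Ishikawa cells, against 50.3% of all genes in KLE cells and 50.8% in Ishikawa cells.

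HOXD13 had 3.53, 4.55 and 4.87 CPM in copper-treated KLE libraries, against 10.1, 8.38 and 8.32 CPM in untreated ones. The groups were well apart, with a log2 fold change of -1.05 ± 0.153 (edgeR adjusted p 2.38e-07). HOXA13 had 5.02, 5.81 and 5.69 CPM with copper and 9.55, 9.83 and 7.36 CPM untreated, and fell by 0.70 ± 0.144 (edgeR adjusted p 8.89e-05). HOXB13 had 4.59, 6.27 and 5.21 CPM with copper and 7.58, 7.60 and 7.17 CPM untreated, and fell by 0.48 ± 0.149 (edgeR adjusted p 0.00716). Neither HOXA13 nor HOXB13 overlapped between groups. HOXD10 had the largest estimate, -1.94 ± 0.561 (edgeR adjusted p 0.00383), but rests on 4, 2 and 2 counts with copper against 10, 11 and 11 untreated.

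HOXA7 had 24.1, 25.8 and 24.3 CPM with copper and 33.0, 32.2 and 33.9 CPM untreated, and fell by 0.42 ± 0.0691 (edgeR adjusted p 2.58e-06). HOXA10 had 32.6, 29.8 and 29.7 CPM with copper and 34.8, 35.7 and 34.5 CPM untreated, and fell by 0.19 ± 0.0661 (edgeR adjusted p 0.0165). Both were lower in each treated library than in any untreated one. HOXD4 fell by 1.03 ± 0.324, HOXA4 by 0.48 ± 0.171 and HOXD8 by 0.27 ± 0.115. HOXD4 shares 80.5% of its exonic bases with AC009336.2 on the same strand, so its reads cannot be assigned to it alone. In groups 9 to 13, HOXA9 at -0.21 ± 0.268, HOXA11 at -0.32 ± 0.172 and HOXD9 at -0.31 ± 0.135 were not called, and HOXD11, with 3, 3 and 8 counts treated and 8, 19 and 13 untreated, did not pass the count filter. The median of the 8 tested members of these groups was -0.40, with 62.5% called. In groups 4 to 8, the 6 tested members had a median of -0.45, with 66.7% called, against 50.8% of all genes. The 5 tested members of groups 1 to 3 had a median of -0.11. Whether these bands differ in KLE cells was not tested. Of the lower-numbered members, HOXA2, HOXA3, HOXA5, HOXA6, HOXD1 and HOXD3 were not called, with log2 fold changes of -0.50 to 0.27. HOXA3 stood at 12.7 CPM in each of the 3 copper-treated libraries and at 15.7, 12.3 and 13.3 CPM in untreated ones, which overlap.

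In KLE cells, leaving out copper library 1 ended the calls of HOXB13 (0.0538), HOXD4 (0.0553) and HOXD8 (0.0723) and left 6 of the 9 genes called lower. HOXA10 was lost without copper library 2 or 3 or untreated library 2 (0.0511 to 0.0675), HOXA4 without copper library 3 or untreated library 2 (0.0921 to 0.117), HOXD4 also without untreated library 2 (0.0698), and HOXD8 without any library but untreated library 3 (0.0507 to 0.201).

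**Figure D3:**
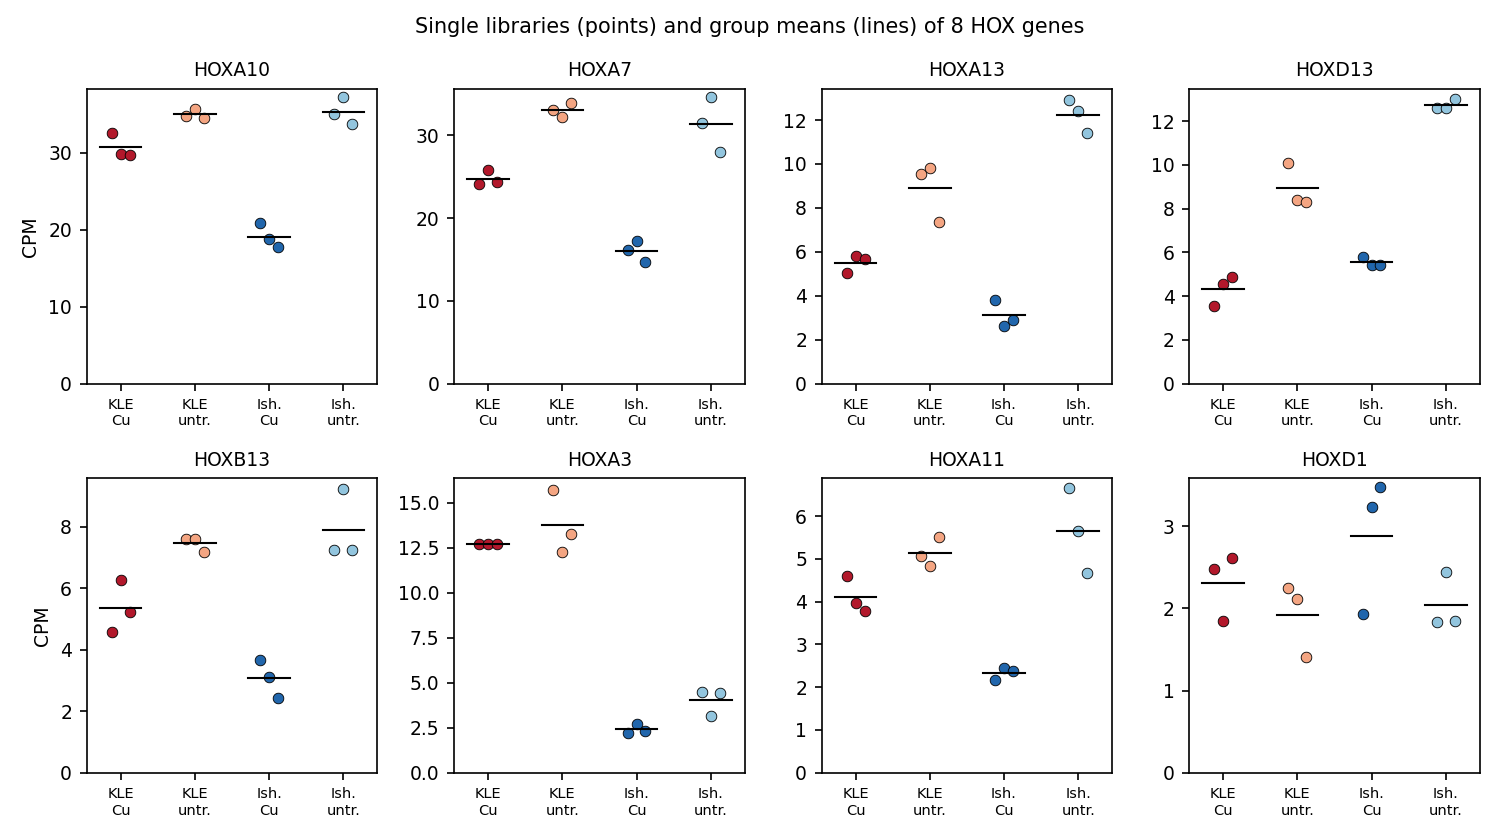
CPM of 8 HOX genes in single libraries (points) with group means (lines), in the order KLE with copper (Cu), KLE untreated (untr.), Ishikawa (Ish.) with copper and Ishikawa untreated. HOXA10, HOXA7, HOXA13, HOXD13 and HOXB13 are lower in every copper library than in any untreated library of the same line, as is HOXA11, while HOXD1 overlaps.

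Of the 14 HOX genes lower in Ishikawa cells, 57.1% were also lower in KLE cells, and of the 9 lower in KLE cells, 88.9% were lower in Ishikawa cells. The 8 shared genes were HOXA4, HOXA7, HOXA10, HOXA13, HOXB13, HOXD8, HOXD10 and HOXD13. Over all genes called lower, 52.4% of those in Ishikawa cells were also lower in KLE cells, and 75.1% of those in KLE cells were also lower in Ishikawa cells.

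The difference between the responses was tested directly, as the copper change in KLE cells minus that in Ishikawa cells. It was fitted on all 12 libraries, while the responses beside it were fitted within each line. The responses therefore do not subtract exactly to the difference. Of 20 HOX genes tested, 8 were called and all 8 were positive, that is, they fell less in KLE cells. By edgeR 0 were called negative, 0 were negative at an unadjusted p under 0.05, and DESeq2 and limma-voom called 0 as well. These checks kept the count filter, and without it a negative call appeared, as given below. Over all genes, 45.4% were called, 24.6% positive and 20.8% negative. HOXA13 differed by 1.30 ± 0.214 (edgeR adjusted p 3.45e-05), with -0.70 in KLE and -1.94 in Ishikawa cells. HOXA10 differed by 0.72 ± 0.105 (edgeR adjusted p 6.68e-06), with -0.19 in KLE and -0.86 in Ishikawa cells. HOXA11, HOXB13, HOXA4, HOXD9, HOXA3 and HOXA7 differed by 0.58 to 0.98. HOXD13 did not pass the test, with a difference of 0.18 ± 0.19 around -1.05 in KLE and -1.17 in Ishikawa cells. Of the 8 calls, 6 were in HOXA (of 11 tested), 1 was HOXB13 and 1 was in HOXD (of 8 tested). The median difference was 0.72 in HOXA and -0.071 in HOXD, and 0.034 over all genes. The HOXD value includes HOXD10 and HOXD11, which held few counts and whose estimates turned sign under some alternatives given below. Whether the clusters differ in response was not tested. The call of HOXA3 does not hold on the TPM scale (0.084 with 1 TPM added, limma adjusted p 0.68), and it was lost without Ishikawa copper library 1 or 3, Ishikawa untreated library 1 or 3, KLE copper library 3 or KLE untreated library 2 (edgeR adjusted p 0.0538 to 0.0931). HOXD9 was lost without Ishikawa copper library 2 or 3, KLE copper library 2 or KLE untreated library 1 (0.0564 to 0.0716), and HOXA4 without Ishikawa copper library 3 (0.0567).

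Between copper-treated KLE and copper-treated Ishikawa cells, 11 of 20 HOX genes were higher in KLE, 3 were lower and 6 were not called. That is 70% called with copper and 35% untreated, where over all genes 65.7% were called with copper (33.3% higher and 32.3% lower) and 50% untreated. The change in the HOX share was not tested. The median log2 fold change was 0.66 over the HOX genes and 0.0021 over all. CPM ranges did not overlap for 12 HOX genes higher in KLE and 3 lower, where 34% of all genes were apart and higher and 36.7% apart and lower. The libraries are those of the copper responses above, so these values are not independent of them. HOXA3 stood at 2.42 ± 0.158 and HOXA2 at 2.75 ± 0.511, each higher in KLE with copper as it was untreated. HOXA4 stood at 1.23 ± 0.211, HOXA7 at 0.65 ± 0.0879, HOXA10 at 0.71 ± 0.0774, HOXA11 at 0.84 ± 0.187, HOXB13 at 0.81 ± 0.177, HOXD9 at 0.94 ± 0.16 and HOXD8 at 0.30 ± 0.118, all higher in KLE with copper and not called untreated. HOXA13 turned round, at 0.84 ± 0.168 with copper (edgeR adjusted p 0.000131) and -0.46 ± 0.132 untreated. Its untreated call was lost without untreated KLE library 3, as given above. HOXD10 at -1.72 ± 0.534, HOXD11 at -1.41 ± 0.476 and HOXD13 at -0.34 ± 0.146 were lower in KLE, as they were untreated. Without KLE copper library 1 or 2, HOXD11 (edgeR adjusted p 0.0657 and 0.0588) and HOXD13 (0.245 and 0.0559) were lost, HOXD13 also without Ishikawa copper library 1 (0.0739), and HOXD8 without KLE copper library 1 or 2 or any Ishikawa copper library (0.0588 to 0.143).

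**Figure D4:**
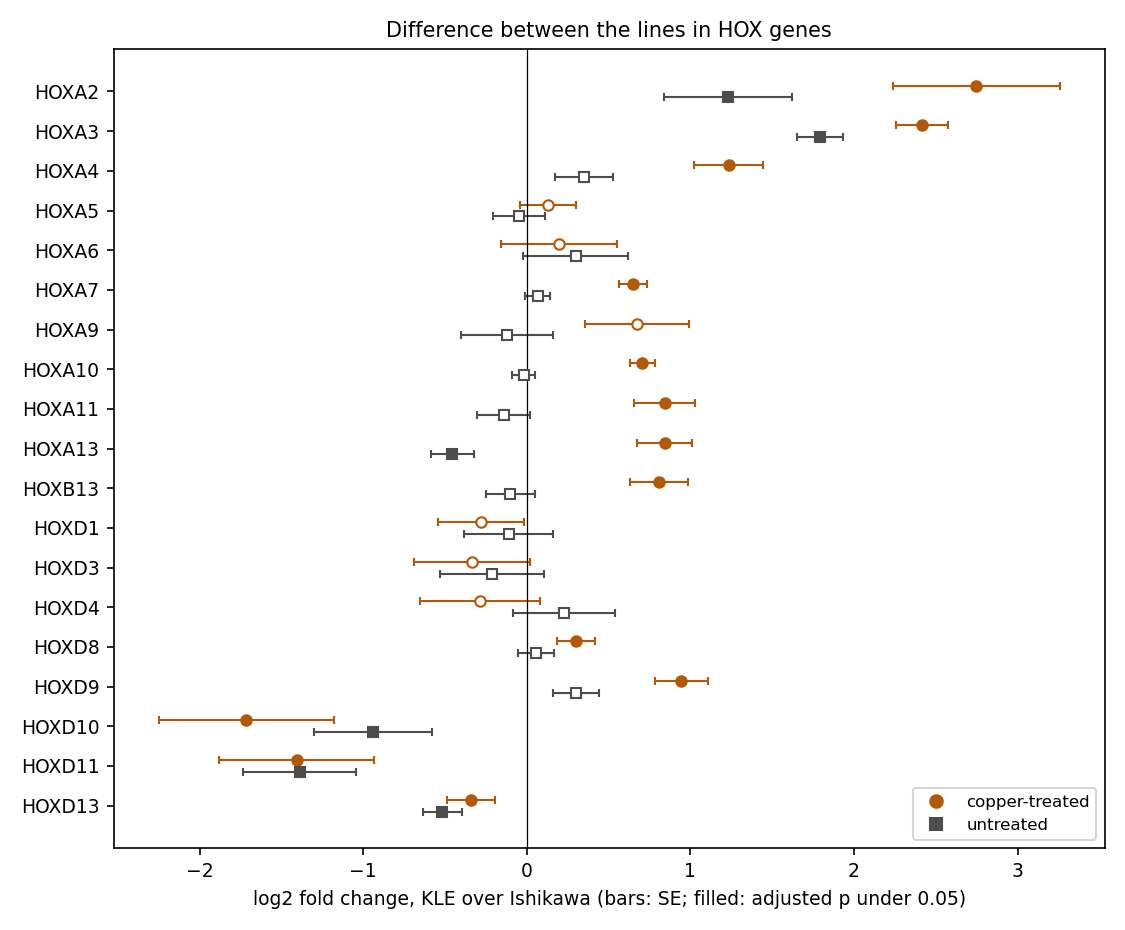
KLE over Ishikawa log2 fold change of the described HOX genes among those tested, in copper-treated cells (circles) and untreated cells (squares); bars are SE and filled symbols passed an adjusted p of 0.05. HOXA3 lies at 2.42 with copper and 1.79 untreated, and HOXA13 lies at 0.84 with copper and -0.46 untreated.

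Promoter letters are shown for HOXA13 and HOXD13, which fell in both lines, and for HOXA10, the most abundant member. The windows, from RefSeq on GRCh38.p14, hold 300 bases each, most of them upstream of an annotated gene start: chr7:27200042-27200341 (minus strand) for HOXA13, chr2:176092471-176092770 (plus) for HOXD13 and chr7:27179812-27180111 (minus) for HOXA10. HOXA10 has 2 windows in the table: the one at its upstream start is shown, and the other, chr7:27174271-27174570, has 0 metal response cores and 1 TATA box. Capitals mark the core of the metal response element, TGCACNC or TGCGCNC on either strand, and the TATA box, TATAAA on either strand.
HOXA13 promoter: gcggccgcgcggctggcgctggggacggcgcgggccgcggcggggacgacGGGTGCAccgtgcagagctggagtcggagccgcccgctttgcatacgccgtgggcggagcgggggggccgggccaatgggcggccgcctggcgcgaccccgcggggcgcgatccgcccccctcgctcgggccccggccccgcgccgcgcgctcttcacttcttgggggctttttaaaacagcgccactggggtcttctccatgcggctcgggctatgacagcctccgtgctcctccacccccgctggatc
HOXD13 promoter: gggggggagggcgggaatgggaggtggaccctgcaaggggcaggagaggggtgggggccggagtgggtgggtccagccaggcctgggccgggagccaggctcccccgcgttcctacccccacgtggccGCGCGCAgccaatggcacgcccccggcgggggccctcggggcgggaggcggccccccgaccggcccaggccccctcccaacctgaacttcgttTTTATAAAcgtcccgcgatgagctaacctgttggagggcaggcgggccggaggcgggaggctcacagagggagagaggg
HOXA10 promoter: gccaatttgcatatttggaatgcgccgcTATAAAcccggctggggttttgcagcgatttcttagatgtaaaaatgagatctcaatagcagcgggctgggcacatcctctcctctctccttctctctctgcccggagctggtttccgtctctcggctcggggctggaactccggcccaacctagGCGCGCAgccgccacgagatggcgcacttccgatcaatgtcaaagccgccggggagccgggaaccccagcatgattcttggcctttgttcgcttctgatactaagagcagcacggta
The metal response element is the site of MTF1, a zinc-sensing factor that activates metallothionein genes in metal-loaded cells. The table holds 26 distinct windows for 20 HOX genes, with 1 shared by HOXC4 and HOXC5. A core occurred in 10 of the 26 and in 29.5% of all 34796 distinct windows. A TATA box occurred in 5 of the 26 and in 11.6% of all, and overlaps itself on both strands in HOXD13. The heat shock element occurred in 0 of the 26 and in 0.491% of all, and TGATNNAT, the core that HOX and PBX bind together, in 3 of the 26 and in 7.42% of all. CpG sites had a median of 22.5 in HOX windows and 14 in all. These matches describe letters in a window, not bound sites.

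The TALE homeodomain proteins are the partners with which HOX proteins bind DNA. Of 9 tested in KLE cells, 1 was higher and 4 were lower with copper, with a median of -0.22, and of 9 in Ishikawa cells, 1 was higher and 6 were lower, with a median of -0.62. The called shares were 55.6% in KLE and 77.8% in Ishikawa cells, where 50.8% of all genes were called in KLE and 69.1% in Ishikawa cells. MEIS1, which binds with PBX and the high-numbered HOX proteins, fell by 0.67 ± 0.0592 in KLE and by 1.00 ± 0.0687 in Ishikawa cells. PBX2 was not called in KLE cells, at -0.077 ± 0.0566, and fell by 0.80 ± 0.0702 in Ishikawa cells, a difference of 0.78 ± 0.0915 (edgeR adjusted p 4.22e-07). Between the untreated lines, PBX3 was higher in KLE by a log2 fold change of 1.17 ± 0.139.

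Of all genes, 50.8% were called in KLE and 69.1% in Ishikawa cells. Called shares of the chromatin regulators are set beside these and are not read as a result about the lists. Of 32 Polycomb genes, 5 were higher and 9 lower with copper in KLE cells (43.8% called), with a median of -0.054, and 10 were higher and 12 lower in Ishikawa cells (68.8% called), with a median of -0.034. The largest changes were in JARID2, a cofactor of Polycomb complex PRC2, which fell by 0.65 ± 0.0744 in KLE and by 1.09 ± 0.091 in Ishikawa cells, and in CBX7, a PRC1 subunit that reads the Polycomb histone mark, which fell by 0.56 ± 0.145 in KLE and by 1.33 ± 0.157 in Ishikawa cells. Of 27 Trithorax and other activating genes, 5 were higher and 7 lower in KLE cells (44.4% called), and 10 were higher and 11 lower in Ishikawa cells (77.8% called). MLLT3, a reader subunit of elongation complexes that sustains HOXA genes in leukaemia, fell by 0.96 ± 0.114 in KLE and by 0.96 ± 0.104 in Ishikawa cells. KDM6A, which removes the Polycomb mark, rose by 0.16 ± 0.0469 in KLE and by 0.94 ± 0.0563 in Ishikawa cells, a difference of -0.72 ± 0.0733 (edgeR adjusted p 4.98e-08). RAD21, a cohesin subunit, fell by 0.44 ± 0.0316 in KLE cells. In Ishikawa cells RAD21 averaged 383 ± 5.45 CPM with copper and 513 ± 16 CPM untreated.

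Among 15 tested factors upstream of HOX genes, 3 were higher and 6 lower in KLE cells, and 2 were higher and 6 lower in Ishikawa cells. The called shares were 60% in KLE and 53.3% in Ishikawa cells, where 50.8% of all genes were called in KLE and 69.1% in Ishikawa cells. CDX2, a homeobox activator of HOX genes in mouse embryos, had 0.66 to 1.10 CPM with copper and 1.41 to 2.18 CPM untreated in KLE cells, and 0.593 to 0.784 CPM with copper and 4 to 4.84 CPM untreated in Ishikawa cells. It fell by 0.86 ± 0.327 in KLE and by 2.55 ± 0.25 in Ishikawa cells, a difference of 1.74 ± 0.411 (edgeR adjusted p 0.0014). RARB, a retinoic acid receptor, fell by 1.70 ± 0.416 in KLE and by 1.27 ± 0.304 in Ishikawa cells. STRA6, the uptake receptor for retinol, fell by 1.17 ± 0.169 in KLE cells. In Ishikawa cells STRA6 averaged 2.13 ± 0.438 CPM with copper and 2.91 ± 0.206 CPM untreated. ALDH1A3, an enzyme that makes retinoic acid, averaged 239 ± 14.7 CPM with copper and 169 ± 2.81 CPM untreated in KLE cells, and 13.8 ± 0.546 CPM with copper and 25.9 ± 1.34 CPM untreated in Ishikawa cells. It differed between the untreated lines by 2.70 ± 0.0554, higher in KLE.

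Of 14 genes next to the clusters tested in each line, 4 were higher and 4 lower in KLE cells, with a median of -0.064, and 4 were higher and 7 lower in Ishikawa cells, with a median of -0.19. The called shares were 57.1% in KLE and 78.6% in Ishikawa cells, against 50.8% and 69.1% of all genes, and are not read as a result about the neighbours. TAX1BP1, an autophagy receptor beyond HOXA, rose by 0.33 ± 0.0361 in KLE and by 1.31 ± 0.0514 in Ishikawa cells, and CALCOCO2, an autophagy receptor beyond HOXB, rose by 0.35 ± 0.048 in KLE and by 0.57 ± 0.0586 in Ishikawa cells. CBX5, beyond HOXC, fell by 0.36 ± 0.0361 in KLE cells. In Ishikawa cells CBX5 averaged 234 ± 8.85 CPM with copper and 308 ± 16.2 CPM untreated. Whether the neighbours and the HOX genes differ as lists was not tested.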

How the data were processed

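RNA was extracted with TRIzol, enriched for mRNA with oligo(dT) and sequenced as paired 150-base reads, per the labels' protocols. The submitters' processing notes name the build GRCh38.p14, RSEM, HISAT2 2.1.0, Bowtie2 2.2.8, fastp 0.18.0, R 4.2.2 and DESeq2, without roles. No source used here gives the annotation or the strand setting. The authors deposited expected counts, estimated per gene, and whole counts equal to them after rounding (largest difference 0.5). The authors also deposited TPM, as the file headers name them, scaled for length and library size. No sample column was left unused.

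Whole counts were tested with edgeR 4.0.16's quasi-likelihood test in R 4.3.3, with TMM factors, filterByExpr at a minimum count of 10, and Benjamini-Hochberg adjustment over all genes tested. Each copper response was fitted within its line, and the other comparisons in 1 fit of all 12 libraries. SE is the absolute log2 fold change over the root of F. Scripts were tested on simulated data. Alternatives used DESeq2 1.42.0 and limma 3.58.1, other scalings, filters, thresholds and left-out libraries. Levels between genes are TPM, and values of a gene across libraries are CPM. Floors cover counting error only, as reads carry no molecular identifiers.

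The HOX members and all gene lists were chosen with earlier results of these data known. Named are the HOX genes called in a comparison, the tested members of paralog groups 9 to 13, and, per other list and comparison, the 2 called genes with the largest absolute change; further genes and members of groups 1 to 8 were added after their values were seen. In Ishikawa cells, deviations of same-numbered libraries correlated at 0.0809 to 0.201, against -0.167 to 0.0904 for different numbers. In KLE cells the values were -0.127 to -0.053 for the same number and -0.00702 to 0.109 for different numbers. The replicate number was not used as a block in the main fits, and fits with it are given below. Counts and summed levels cover all members of a list, and the values of a few of these genes are not reported here.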

Additional observations from a re-analysis of the deposited data

Results flagged for a closer look

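The copper response, KLE minus Ishikawa, passed edgeR's test of the difference itself for 8 HOX genes, each with a smaller fall in KLE cells on the log2 scale. The differences were 1.30 for HOXA13, 0.984 for HOXA11, 0.909 for HOXB13, 0.887 for HOXA4, 0.724 for HOXA10, 0.641 for HOXD9, 0.623 for HOXA3 and 0.584 for HOXA7. HOXA13, HOXA10, HOXA11, HOXB13 and HOXA7 passed under the other scalings, filters, tools and left-out libraries tried, while HOXA3, HOXA4 and HOXD9 lost the call under some. With a log2 difference of 1 or more also required, HOXA13 alone of the 8 passed.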

How the results depend on the processing

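Of the values of named HOX genes recomputed under the alternatives other than the requirement on size, 228 of 237 kept direction and side of the threshold for copper in Ishikawa cells, 186 of 220 for copper in KLE cells, 249 of 274 for the response difference, 190 of 203 between untreated lines and 232 of 253 between copper-treated lines. With a log2 change of 1 or more in size also required, 7 genes (all 7 lower) were called in Ishikawa cells, 3 (3 lower, 0 higher) in KLE cells, 1 (1 higher) for the response difference, 3 (1 lower) between untreated lines and 6 (4 higher) between copper-treated lines. With no count filter, 2 were higher in Ishikawa cells and 1 was negative for the response difference. DESeq2 called 6 in KLE cells, and the number higher there was 0 with DESeq2, with limma on log2(TPM + 1) or log2(TPM + 0.1), and with all 12 libraries in one fit. With the 6 libraries of copper-treated cells alone, 1 was lower in KLE. At a mean of at least 2 TPM, 11 genes remained in copper-treated Ishikawa cells. Leaving out each library gave 12 to 15 calls in Ishikawa cells (0 to 1 higher), 6 to 11 in KLE cells (0 to 1 higher, 6 to 10 lower), 6 to 9 for the response difference, 4 to 7 between untreated lines (2 to 4 higher, 2 to 4 lower) and 11 to 14 between copper-treated lines (1 to 3 lower). The response difference of HOXD11, not called, turned to 0.0473 with library totals, 0.386 with log2(TPM + 1) and 0.123 with log2(TPM + 0.1), and ran from -0.714 to 0.267 over left-out libraries; that of HOXD10 turned to 0.0314 with log2(TPM + 1). Between untreated lines, leaving out libraries moved HOXA10 over -0.0506 to 0.0236 and HOXB13 over -0.162 to 0.0352, neither called. The cause was not tested. With the replicate number as a block, 14 HOX genes were called in Ishikawa cells, 9 in KLE cells, 8 for the response difference, 6 between untreated lines and 13 between copper-treated lines; HOXD8 in KLE cells, HOXD10 between untreated lines and HOXD13 between copper-treated lines were lost. Library totals moved the median of all genes in Ishikawa cells to -0.167, log2(TPM + 1) to -0.157, log2(TPM + 0.1) to -0.174 and upper-quartile factors to -0.125, so changes there are relative to such a shift. Low counts limit the precision of HOXD10, HOXD11 and HOXA2.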

Other observations

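Of 13 tested homeobox genes of the ParaHOX and related families, 2 were higher and 6 lower with copper in KLE cells, and of 12 tested in Ishikawa cells, 2 were higher and 6 lower. The called shares were 61.5% in KLE and 66.7% in Ishikawa cells, where 50.8% of all genes were called in KLE and 69.1% in Ishikawa cells. EN2, a gene of the midbrain and hindbrain, had the largest estimate in both lines among those tested: it averaged 1.26 ± 0.252 CPM with copper and 0.365 ± 0.128 CPM untreated in KLE cells, and 25.7 ± 1.37 CPM with copper and 0.615 ± 0.21 CPM untreated in Ishikawa cells (SD, n = 3 each). Its log2 fold change was 1.76 ± 0.42 in KLE cells and 5.47 ± 0.174 in Ishikawa cells, and the KLE minus Ishikawa difference was -3.64 ± 0.486. DLX2, a gene of the forebrain and branchial arches, rose by 1.00 ± 0.269 in KLE cells and by 1.98 ± 0.255 in Ishikawa cells. EMX2, a gene of the urogenital tract and cortex, fell by 1.35 ± 0.169 in KLE cells and by 1.18 ± 0.0883 in Ishikawa cells. Between untreated lines, LHX1, needed for the Müllerian duct in mice, averaged 23.3 ± 0.767 CPM in KLE and 0.087 ± 0.0287 CPM in Ishikawa cells, and MSX1, a homeobox repressor, averaged 22.2 ± 0.668 CPM in KLE and 140 ± 34.3 CPM in Ishikawa cells.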
